A study of Mus musculus with 14 samples.

Results

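The 10 genes described here act in the uptake of photoreceptor outer segments by the retinal pigment epithelium (RPE). They were listed by name: the receptor tyrosine kinases Mertk, Axl and Tyro3 (the TAM receptors), their ligands Gas6 and Pros1, the integrin subunits Itgav and Itgb5 with the bridging protein gene Mfge8, the scavenger receptor Cd36, and Tub, whose protein tubby is a ligand of MerTK. The rule named genes by function and set no cutoff on a measured value, though the list was drawn up with earlier results of these data known. Each was found by its Ensembl identifier among 34452 mouse gene rows, and all 10 were among the 16289 genes with enough counts to be tested.

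Photoreceptors shed the tips of their outer segments daily, and the RPE binds, engulfs and digests them. In this uptake the integrin αvβ5 binds shed material at the apical surface through MFG-E8, and MerTK, engaged by GAS6 or protein S (the product of Pros1), triggers engulfment. Loss of MerTK causes photoreceptor degeneration in rats, mice and humans.

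RNA-seq was done on RPE of rd1 mice at P20. The rd1 mouse (FVB/N) lacks Pde6b function, so that its rods die early and few outer segments remain for the RPE to take up. In each of 7 mice, both eyes carried the rd1 mutation and had received AAV-Best1-GFP subretinally, and 1 eye had received AAV-Best1-Nrf2, which carries human Nrf2 (NFE2L2), as well. The Best1 promoter is active in the RPE. Nrf2 is a transcription factor best known for inducing antioxidant genes. The Nrf2 eyes therefore differed from control eyes by an added vector of another capsid as well as by the transgene. RNA came from the eyecup after removal of the retina and was amplified with a low-input kit. Libraries are named below by group and mouse number.

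The 14 libraries held 16548349 to 50543008 counts. The 12 RPE markers summed to 14311 to 35235 CPM (counts per 1e+06, here scaled with the TMM factors of edgeR). The labelled tissue was therefore represented in every library. Rpe65 itself was lower in Nrf2 eyes (log2 fold change -2.17, SE 0.37, adjusted p = 0.0199), the 1 RPE marker past the threshold given below. Of the 12, 6 had a log2 fold change above 0 and 6 below (median -0.08). Their sum was higher in the Nrf2 eye of 4 of 7 mice and lower in 3. The vector transcript was higher in the Nrf2 eye of 7 of 7 mice, but libraries control 3 and Nrf2 4 stood apart. They held 1161 and 1147 CPM of it, against 0.989 to 168 CPM in the other controls and 4907 to 9832 CPM in the other Nrf2 eyes, and among all 91 pairs of libraries they were the most alike (median absolute log2 difference 0.0869 per gene, next pair 0.154). Whether these 2 libraries match their labels was not tested, and each direction that rests on them assumes the labels as given. Library Nrf2 2 also stood apart, with 2.55% of its counts in pseudogenes against 1.06% to 1.17% in the others. Results are therefore also given without mice 3 and 4, or without mouse 2, where these matter. In bulk RNA, fewer cells of a type and less RNA per cell cannot be told apart.

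Gas6 was the 1 member of 10 that differed between Nrf2 and control eyes, and it was higher with Nrf2. By the same test 3.43% of all genes tested differed, 2.94% higher and 0.491% lower. The threshold was an adjusted p under 0.05 in the paired quasi-likelihood test of edgeR, corrected over all 16289 genes and the vector transcript. The median log2 fold change of the members was 0.08, beside -0.04 over all genes tested, and 6 of the 10 had an absolute log2 fold change under 0.5, beside 72.5% of all genes. The levels of the groups overlapped for every member, whereas 1.6% of all genes had groups that did not. An unadjusted p under 0.05 was reached by 2 members (Gas6 and Tub), and by 18.1% of all genes. The direction was the same in all 7 mice for 1 member (Gas6), and for 8.58% of all genes.

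**Figure D1:**
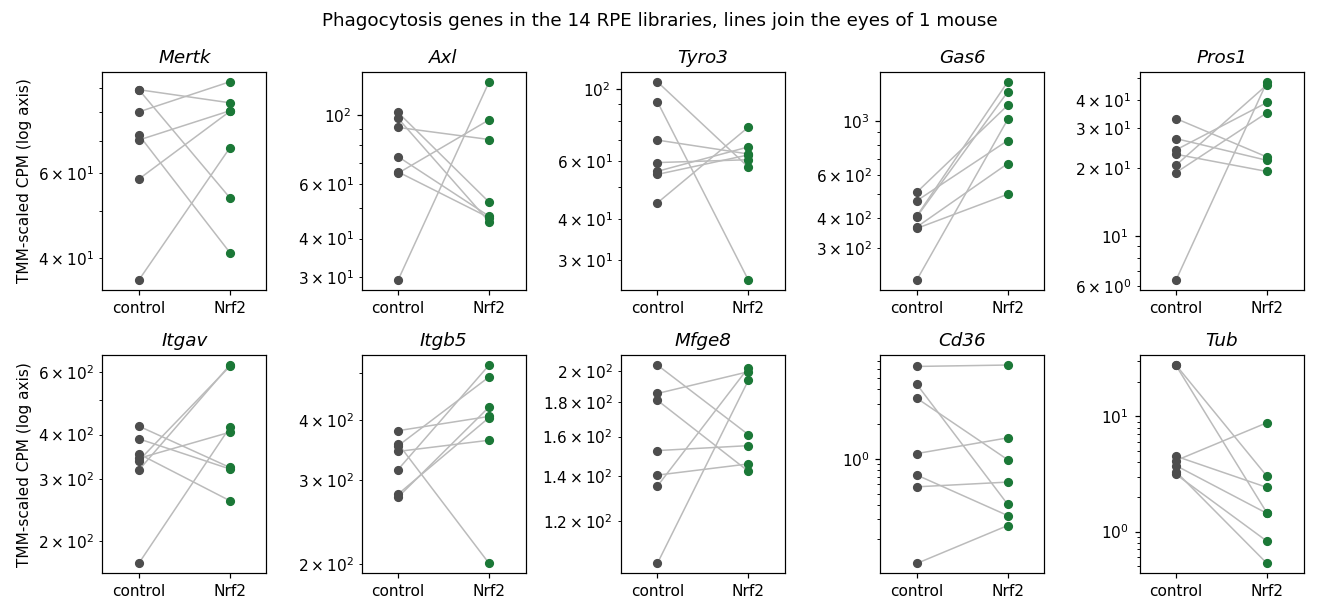
TMM-scaled CPM of the 10 members in each library on log axes, with grey lines joining the control (dark) and Nrf2 (green) eye of a mouse. Gas6 is higher in the Nrf2 eye on all 7 lines, Tub is lower on 6 of 7, and the lines of the other members run both ways.

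**Figure D2:**
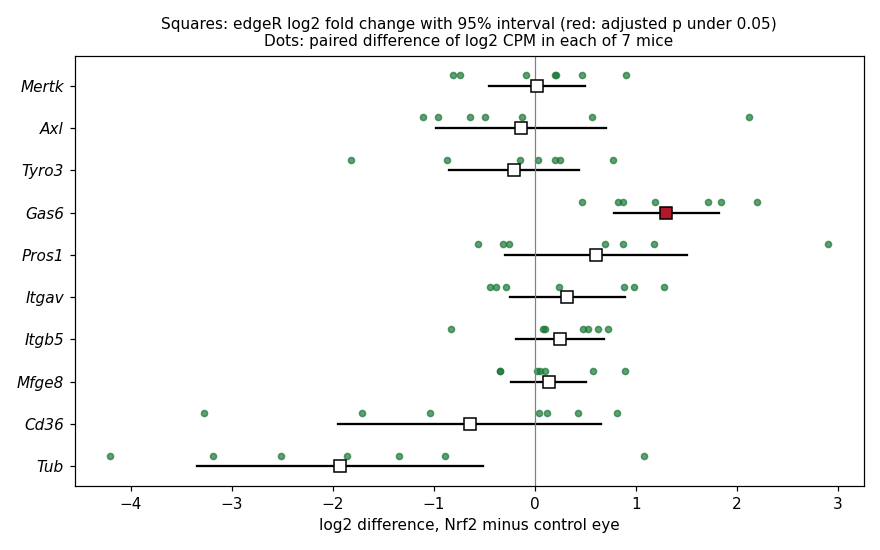
Log2 fold change of each member (squares, edgeR, bars are 95% intervals) and the paired log2 difference in each of the 7 mice (dots), Nrf2 minus control eye. Gas6 (red, 1.30) is the member past the threshold, and the interval of Tub lies below 0 although its adjusted p of 0.151 misses the threshold.

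Per kilobase of exonic length, Gas6 was the most abundant member in control eyes, and the TAM receptors were far below the integrin β5 subunit. The median level was 158 CPM per kb for Gas6 and 96.7 CPM per kb for Itgb5. Mfge8 (32.5) and Itgav (31.9) followed, then Mertk (16.6), Axl (14.6), Tyro3 (9.60) and Pros1 (5.62), all as median CPM per kb. Tub (0.493 CPM per kb) and Cd36 (0.309 CPM per kb) were near the lower end of what was detected. In this order only the step from Itgb5 to Mfge8 had control ranges that did not overlap, with a lowest Itgb5 level of 77.6 and a highest Mfge8 level of 43.4 CPM per kb. Mertk, Axl and Tyro3 overlapped with one another, and no order among these receptors held beyond their spread. The order by median in Nrf2 eyes was the same except that Itgav stood above Mfge8 and Cd36 above Tub.

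**Figure D3:**
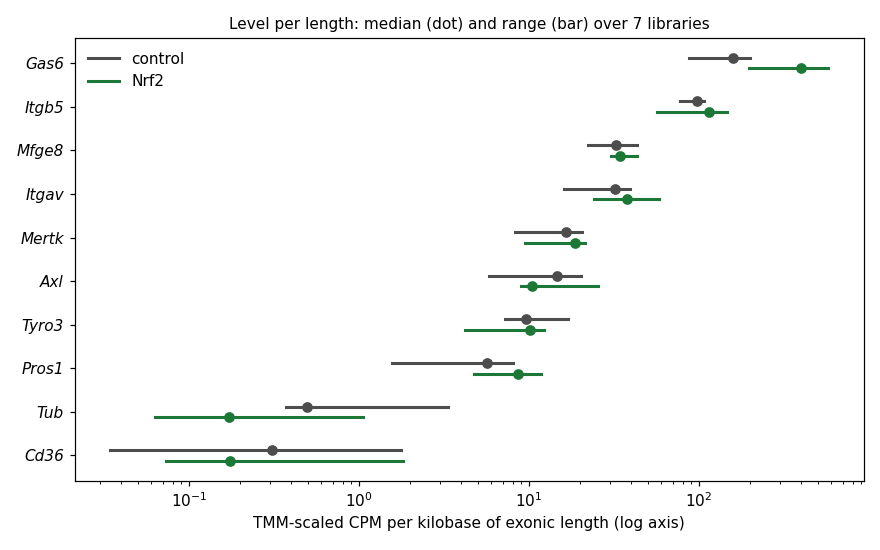
Level of each member in TMM-scaled CPM per kb of exonic length (log axis), as the median (dot) and range (bar) of 7 libraries per group. Gas6 is highest in both groups, with medians of 158 in control and 400 in Nrf2 eyes, and Tub and Cd36 are lowest.

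Mertk, the receptor whose kinase activity starts engulfment in the RPE, had nearly the same mean in both groups. The gene (ENSMUSG00000014361) lies at chr2:128698956-128802894 on the plus strand of GRCm38. Its level ran from 36.0 through a median of 71.9 to 89.2 CPM in control eyes, and from 41.1 through 80.4 to 92.6 CPM in Nrf2 eyes. The ranges coincided almost wholly, and the eye with the lower value was the control in 4 mice (1, 3, 5 and 6) and the Nrf2 eye in 3. The summed RPE markers were lower in the same eye in every mouse, with log2 ratios of 0.73, -0.30, 0.62, -0.48, 0.67, 0.54 and -0.65 in mice 1 to 7. That comparison was made after the values were seen, and the part of RPE content in Mertk was not tested. The log2 fold change of Mertk was 0.02 (SE 0.21, 95% interval -0.46 to 0.50, adjusted p = 0.97), so the data leave room for a change of up to about these bounds in either direction. Its sign depended on the scaling and turned negative (-0.11) when libraries were scaled by total count.

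Axl and Tyro3, the other TAM receptors, gave wide intervals around 0. Axl (ENSMUSG00000002602, chr7:25757273-25788705), more often linked to immune and vascular cells than to the RPE, ranged from 29.3 through 73.4 to 102 CPM in control eyes and from 45.3 through 52.4 to 128 CPM in Nrf2 eyes. It was lower in the Nrf2 eye of 5 mice and higher in mice 4 and 6, and both the lowest control level and the highest Nrf2 level came from mouse 6. For Axl the log2 fold change was -0.14 (SE 0.37, 95% interval -0.97 to 0.70, adjusted p = 0.882), and it was -0.48 (adjusted p = 0.298) without mouse 6. Mouse 6 also had the lowest summed level of 6 fibroblast markers among controls (115 CPM, against 400 to 700 CPM in the others) and 953 CPM in its Nrf2 eye. The part of these cells in the Axl values was not tested.

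Tyro3 (ENSMUSG00000027298, chr2:119797733-119818104) ranged from 44.8 through 59.5 to 105 CPM in control eyes and from 25.9 through 62.8 to 76.4 CPM in Nrf2 eyes. The lowest value belonged to library Nrf2 2, and the other 6 Nrf2 eyes lay within the control range. On the log2 scale the difference was -0.21 (SE 0.28, 95% interval -0.85 to 0.44, adjusted p = 0.736), and without mouse 2 it was 0.04 (SE 0.20).

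Gas6 encodes a vitamin K-dependent protein that bridges phosphatidylserine on the target to the TAM receptors, and in every mouse it was more abundant with Nrf2. The gene (ENSMUSG00000031451) lies at chr8:13465374-13494490 on the minus strand of GRCm38. Control eyes held 403, 366, 509, 361, 469.6, 221 and 406 CPM in mice 1 to 7, a mean of 391 ± 92.1 (SD, n = 7). Nrf2 eyes held 1322, 669, 1164, 500.0, 833, 1018 and 1454 CPM in the same order, a mean of 994 ± 348 (SD, n = 7). The groups overlapped by 1 pair of libraries, control 3 (the highest control) and Nrf2 4 (the lowest Nrf2 eye), which are the libraries that stood apart above. The log2 fold change was 1.30 (SE 0.23, 95% interval 0.78 to 1.82, adjusted p = 0.0221), or 2.47-fold. The paired log2 differences ran from 0.47 in mouse 4 to 2.20 in mouse 6, and their exact two-sided sign-flip permutation test gave p = 0.0156, the smallest that 7 mice allow.

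The size of the Gas6 difference was stable, and its call was not. Without mice 3 and 4 the log2 fold change was 1.49 (SE 0.26, adjusted p = 0.0291, where 4.51% of all genes differed). The 5 remaining Nrf2 eyes (669 to 1454 CPM) lay above all 5 control eyes (221 to 469.6 CPM), and Gas6 was the 1 member of 10 whose groups did not overlap in these mice, as in 7.82% of all genes. For Gas6 this followed from leaving out control 3 and Nrf2 4, the only libraries that overlapped, so it adds no support. Leaving out mouse 1, 3, 5 or 7 moved the adjusted p to 0.0859, 0.0776, 0.0569 or 0.0876 with log2 fold changes of 1.23, 1.34, 1.38 and 1.21 (with 1 mouse left out, 0.681% to 12.2% of all genes differed). Over 17 alternative fits, including these, the log2 fold change stayed between 1.14 and 1.54 and the adjusted p between 1.13e-06 and 0.0876, under the threshold in 13. Among markers of other cell types that the eyecup holds, no gene of the fibroblast, endothelial or macrophage and microglia lists passed the threshold. The summed fibroblast markers were higher in the Nrf2 eye of 3 of 7 mice and lower in 4, while 5 of 6 had a log2 fold change above 0 (median 0.33). In mouse 6, which had the largest paired difference in Gas6, this sum was 115 CPM in the control and 953 CPM in the Nrf2 eye. The summed macrophage and microglia markers were higher in 3 of 7 mice, while 8 of 10 had a log2 fold change above 0 (median 0.80), and the endothelial sum was higher in 2, with 2 of 7 markers above 0 (median -0.15). Markers of the inner retina and Müller glia summed to 1011 to 2691 CPM in control and 1929 to 2647 CPM in Nrf2 eyes. Their sum was higher in 3 of 7 mice, most in mouse 6 (1011 and 2647 CPM). Of 10 tested, 3 were above 0 (median -0.68) and 0 passed. The part of these cells in Gas6 was not tested.

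The promoters of Gas6, the member that rose, and of Mertk, its main receptor in the RPE, are shown because Nrf2 binds DNA at antioxidant response elements. They are RefSeq windows on GRCm38.p6 from 250 bases before to 50 after the annotated start, written 5′ to 3′ on the strand of the gene, with the annotated start base in capitals. Gas6 is at chr8:13494486-13494785 on the minus strand and Mertk at chr2:128698665-128698964 on the plus strand.
Gas6: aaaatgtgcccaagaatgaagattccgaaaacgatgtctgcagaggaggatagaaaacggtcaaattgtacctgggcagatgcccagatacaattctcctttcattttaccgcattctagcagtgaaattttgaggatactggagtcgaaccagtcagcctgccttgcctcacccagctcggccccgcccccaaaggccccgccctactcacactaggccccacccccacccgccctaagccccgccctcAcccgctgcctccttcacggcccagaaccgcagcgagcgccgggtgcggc
Mertk: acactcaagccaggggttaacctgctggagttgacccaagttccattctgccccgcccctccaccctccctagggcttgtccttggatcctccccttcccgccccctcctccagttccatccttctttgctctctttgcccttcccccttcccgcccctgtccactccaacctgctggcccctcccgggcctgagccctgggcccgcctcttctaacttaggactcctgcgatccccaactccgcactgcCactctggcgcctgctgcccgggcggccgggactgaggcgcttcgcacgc
The letters TGACNNNGC of the antioxidant response element were searched on both strands in these windows and in those of the other 8 members, and 0 of 10 held them, beside 12.4% of 32851 windows of the same length. The E-box letters CACGTG and CATGTG, which can lie in the same window as each other, were each found in 0 of 10 members, beside 7.15% and 14.2% of all windows. The absence says only that these letters are not in these windows. The GC content was 58.3% for Gas6 and 66.0% for Mertk, beside a median of 52.7% over all windows.

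Pros1, which encodes protein S, the second TAM ligand and an anticoagulant cofactor, varied widely between mice. The gene is ENSMUSG00000022912 at chr16:62854307-62929346. Its level ran from 6.38 through 22.98 to 33.1 CPM in control eyes and from 19.3 through 35.1 to 48.1 CPM in Nrf2 eyes. Nrf2 eyes were higher in mice 2, 4, 6 and 7 and lower in mice 1, 3 and 5, and the largest paired log2 difference, 2.90, was that of mouse 6. This gave a log2 fold change of 0.60 (SE 0.40, 95% interval -0.30 to 1.51, adjusted p = 0.453), and 0.26 (adjusted p = 0.668) without mouse 6. The 3 Nrf2 eyes with the highest fibroblast sums, 996 CPM in mouse 2, 953 CPM in mouse 6 and 685 CPM in mouse 4, were 3 of the 4 in which Pros1 was higher, and the part of fibroblasts in Pros1 was not tested.

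The change in Gas6 was set against that in its receptors and in Pros1, a comparison chosen after the values were seen. The log2 change of Gas6 exceeded that of Tyro3 by 1.53 ± 1.13 (SD, n = 7), in 7 of 7 mice, with an exact sign-flip permutation p = 0.0156 and 0.0625 after adjustment over these 4 comparisons. It exceeded that of Mertk by 1.28 ± 0.87 in 6 of 7 mice and that of Axl by 1.39 ± 1.02 in 6 of 7, with exact permutation p-values of 0.0312 and 0.0469, both 0.0625 after adjustment. Against Pros1 the difference of 0.66 ± 1.11 was positive in 4 of 7 mice (exact permutation p = 0.172, unchanged by adjustment). None of the 4 differences passed 0.05 after adjustment.

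The integrin αvβ5 and its bridge showed no called change. Itgb5 (ENSMUSG00000022817, chr16:33829665-33949338), the β5 subunit specific to this receptor, ranged from 276 through 344 to 379.5 CPM in control eyes and from 201 through 406 to 520.1 CPM in Nrf2 eyes. Nrf2 eyes were higher in 6 mice, and the exception, mouse 2, held the lowest level of all 14 libraries. Its log2 fold change was 0.25 (SE 0.19, 95% interval -0.18 to 0.68, adjusted p = 0.522), or 0.42 (SE 0.13, adjusted p = 0.126) without mouse 2.

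Itgav (ENSMUSG00000027087, chr2:83724397-83806916), the αv subunit shared by several integrins, ranged from 173 through 343 to 423 CPM in control eyes and from 260.3 through 406 to 629 CPM in Nrf2 eyes. The Nrf2 eyes of mice 1 and 3 were the highest and the control eye of mouse 5 the lowest, and the groups overlapped over most of their range. The log2 fold change was 0.32 (SE 0.25, 95% interval -0.24 to 0.89, adjusted p = 0.522), with 4 of 7 mice higher. These were mice 1, 3, 5 and 6, the mice in which the summed RPE markers were also higher in the Nrf2 eye. The part of RPE content in Itgav was not tested. Mfge8 (ENSMUSG00000030605, chr7:79133768-79149060), the secreted bridge between phosphatidylserine and αvβ5, had overlapping levels in both groups. It ranged from 104 through 153 to 204 CPM in control eyes and from 142 through 161 to 202 CPM in Nrf2 eyes, so that all Nrf2 eyes lay within the control range. Its log2 fold change was 0.14 (SE 0.16, 95% interval -0.23 to 0.51, adjusted p = 0.693), the narrowest interval of the 10.

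Cd36, a scavenger receptor for oxidized lipids that takes part in outer segment internalization, was barely detected. The gene is ENSMUSG00000002944 at chr5:17781690-17888801. Control eyes ranged from 0.124 through 1.11 to 6.32 CPM and Nrf2 eyes from 0.264 through 0.629 to 6.501 CPM, and the lowest library held 4 counts. Mouse 2 gave the highest level in both groups, and the other Nrf2 eyes stayed at or below 1.52 CPM. Its log2 fold change was -0.64 (SE 0.57, 95% interval -1.95 to 0.66, adjusted p = 0.585), and -0.04 without mice 3 and 4. Nrf2 2 also had 5.09 CPM of 4 adipocyte markers in sum, against 0.215 to 0.564 CPM in the other Nrf2 eyes. The part of fat or other cells in Cd36 was not tested.

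Tub encodes tubby, a membrane-linked protein of neurons and photoreceptors that can bind MerTK, and it was lower in the Nrf2 eye of 6 of 7 mice without passing the threshold. The gene is ENSMUSG00000031028 at chr7:108950338-109034460. Control eyes held 27.7, 4.14, 3.14, 27.9, 3.31, 3.74 and 4.51 CPM in mice 1 to 7, and Nrf2 eyes held 1.45, 8.82, 0.824, 3.02, 0.529, 1.44 and 2.42 CPM. Control eyes 1 and 4 were far above the other controls, and the Nrf2 eye of mouse 2 was above 5 of the 7 controls. The log2 fold change was -1.93 (SE 0.62, 95% interval -3.35 to -0.51, adjusted p = 0.151), a control level 3.80-fold that of Nrf2 eyes, and the exact sign-flip permutation p, which is not adjusted, was 0.0469. Without mouse 2 the log2 fold change was -2.38 (adjusted p = 0.0536), and without mice 3 and 4 it was -1.60 (adjusted p = 0.302). Tub passed the threshold in 2 of 17 alternative fits, DESeq2 (adjusted p = 0.00582, where 11.9% of all genes passed) and voom with quality weights (adjusted p = 0.019, where 15.9% passed), and the highest adjusted p was 0.341.

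The photoreceptor markers were also lower in Nrf2 eyes, and followed Tub in some libraries and not in others. The summed level of 12 photoreceptor markers was lower in the Nrf2 eye of 7 of 7 mice, at 58.0 to 1174 CPM in control eyes and 24.9 to 163 CPM in Nrf2 eyes. Control eyes 1 and 4, the libraries highest in Tub, also had the highest sums (1174 and 1157 CPM), and Nrf2 2, the highest Nrf2 eye in Tub, had the highest sum of its group (163 CPM). The other 5 controls spanned 58.0 to 525 CPM of markers with Tub between 3.14 and 4.51 CPM, and in mouse 2 Tub was higher in the Nrf2 eye while the marker sum was lower. All 12 markers had a negative log2 fold change, with a median of -2.53, and 2 passed the threshold, Opn1sw (-5.12, SE 1.13, adjusted p = 0.047) and Gnat2 (-1.69, SE 0.32, adjusted p = 0.0294). No marker was at 0 in all libraries. The part of photoreceptor RNA in the Tub values was not tested.

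**Figure D4:**
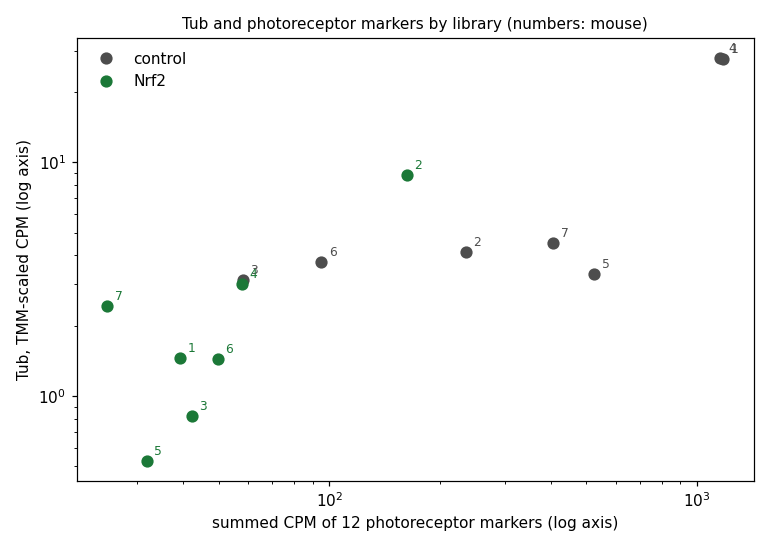
Tub in TMM-scaled CPM against the summed TMM-scaled CPM of 12 photoreceptor markers, both on log axes, 1 point per library, numbered by mouse. Control libraries 1 and 4 lie together at the upper right, near 28 CPM of Tub, and all Nrf2 libraries except that of mouse 2 lie below 60 CPM of markers.

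Other genes of the pathway were taken from 3 lists chosen by role, 47 genes in all, of which 44 were tested (Timd4, Havcr1 and Stab2 had too few counts). Of the 44, 3 rose (Cd81, Lamp2 and Ctsd) and 1 fell (Tulp1), and the median log2 fold change was 0.04. These 4 calls are to be read beside the 3.43% of all genes that differed. Lamp2 and Tulp1 were the 2 of 44 whose groups did not overlap, beside 1.6% of all genes.

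Among 13 tested genes for other recognition and engulfment receptors, ligands and regulators, 1 rose and 1 fell, with a median log2 fold change of -0.15. Of all genes, 2.94% rose and 0.491% fell. Tulp1, a photoreceptor protein related to tubby that also binds MerTK, ran from 14.4 through 27.1 to 63.6 CPM in control eyes and from 5.70 through 10.3 to 13.6 CPM in Nrf2 eyes. Every Nrf2 eye was below every control eye. Tulp1 fell by 1.63 on the log2 scale (SE 0.25, adjusted p = 0.0146), in 7 of 7 mice, and its highest controls were again those of mice 1 and 4, at 63.6 and 54.6 CPM, which also held the most photoreceptor marker RNA. The part of photoreceptor RNA in Tulp1 was not tested. Cd81, a tetraspanin of the RPE surface reported to regulate outer segment binding, ran from 387 through 646 to 842 CPM in control eyes and from 788 through 1335 to 1971 CPM in Nrf2 eyes. It was higher in 7 of 7 mice, and only Nrf2 4 fell within the control range. Cd81 rose by 1.10 on the log2 scale (SE 0.21, adjusted p = 0.0288). Lgals3, whose product galectin-3 is a MerTK ligand, gave a log2 difference of -1.09 (SE 0.57, adjusted p = 0.355) and Lrp1, an endocytic receptor, of 0.12 (SE 0.14, adjusted p = 0.686), neither past the threshold. Lgals3 was lower in the Nrf2 eye of 6 mice and higher in mouse 4 (paired log2 difference 2.93), and it passed the threshold without mice 3 and 4 (-1.60, adjusted p = 0.0253) and without mouse 4 alone (-1.54, adjusted p = 0.00687), with adjusted p up to 0.614 over 17 alternative fits. With DESeq2, Adgrb1 (lower) and Sirpa (higher) also passed, where 11.9% of all genes did. Adgrb1 passed with voom too (15.9% of all genes), and Sirpa with no block and without control 3 and Nrf2 4 (9.02%).

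None of the 16 genes for engulfment signalling and the cytoskeleton passed the threshold in edgeR, and their median log2 fold change was 0.00. At an unadjusted p under 0.05 there were 4 (Ezr, Myh9, Gulp1 and Vav3), the same 4 passed with DESeq2, and Ezr, Myh9 and Gulp1 passed with voom. Without mouse 4, Ezr, Gulp1, Anxa2, Dock1 and Vav3 passed, and without mouse 6 Myh9 did. Of all genes, 18.1% had an unadjusted p under 0.05. The threshold was passed by 11.9% of all genes with DESeq2 and 15.9% with voom. Without mouse 4 it was passed by 12.2%, and without mouse 6 by 1.47%. Ezr, the ezrin of RPE apical microvilli, had 763 ± 133 CPM in control and 1254 ± 341 CPM in Nrf2 eyes (SD, n = 7), a log2 difference of 0.69 (SE 0.19, adjusted p = 0.0941) with the same direction in 7 of 7 mice. Over 17 alternative fits the adjusted p of Ezr lay between 0.00445 and 0.27, under the threshold in 5. Anxa2, the annexin linked to phagosome formation, had -0.83 (SE 0.52, adjusted p = 0.437), and -1.25 (adjusted p = 0.0168) without mouse 4, the 1 alternative of 17 in which it passed. Rac1, the small GTPase downstream of MerTK and αvβ5 signals, had -0.02 (SE 0.18, adjusted p = 0.958).

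Among 15 genes of phagosome maturation, 2 rose, beside 2.94% of all genes, and the median log2 fold change was 0.16. Ctsd, the cathepsin D that degrades rhodopsin in RPE lysosomes, ran from 2501 through 4602 to 7109 CPM in control eyes and from 6715 through 23213 to 33030 CPM in Nrf2 eyes. Nrf2 4 was the lowest Nrf2 eye and control 3 the highest control, and these 2 were the sole libraries that overlapped. Ctsd rose by 2.36 on the log2 scale (SE 0.39, adjusted p = 0.0186). Lamp2, a lysosomal membrane protein, ran from 380.3 through 509.8 to 570.4 CPM in control eyes and from 579 through 909.7 to 1025 CPM in Nrf2 eyes. Its log2 difference was 0.87 (SE 0.13, adjusted p = 0.0135), and no Nrf2 eye lay within the control range. Both genes were higher in 7 of 7 mice. Lamp1, its close relative, had 0.36 (SE 0.14, adjusted p = 0.224). Lamp1 and Map1lc3b also passed with DESeq2, where 11.9% of all genes did, and Mreg passed without mouse 4, where 12.2% did.

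The 4 pathway calls kept their direction in 17 alternative fits each. Without mice 3 and 4 they passed the threshold, as 4.51% of all genes did, at adjusted p = 0.0438 for Tulp1, 0.022 for Cd81, 0.0255 for Lamp2 and 0.0116 for Ctsd. Leaving out 1 mouse lifted the adjusted p above the threshold without mouse 3, 5 or 7 for Tulp1 (highest 0.0569), without any mouse but 4 for Cd81 (highest 0.111), without mouse 1, 3 or 7 for Lamp2 (highest 0.0604) and without mouse 1, 3, 5, 6 or 7 for Ctsd (highest 0.0837). In these fits 0.681% to 12.2% of all genes passed.

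**Figure D5:**
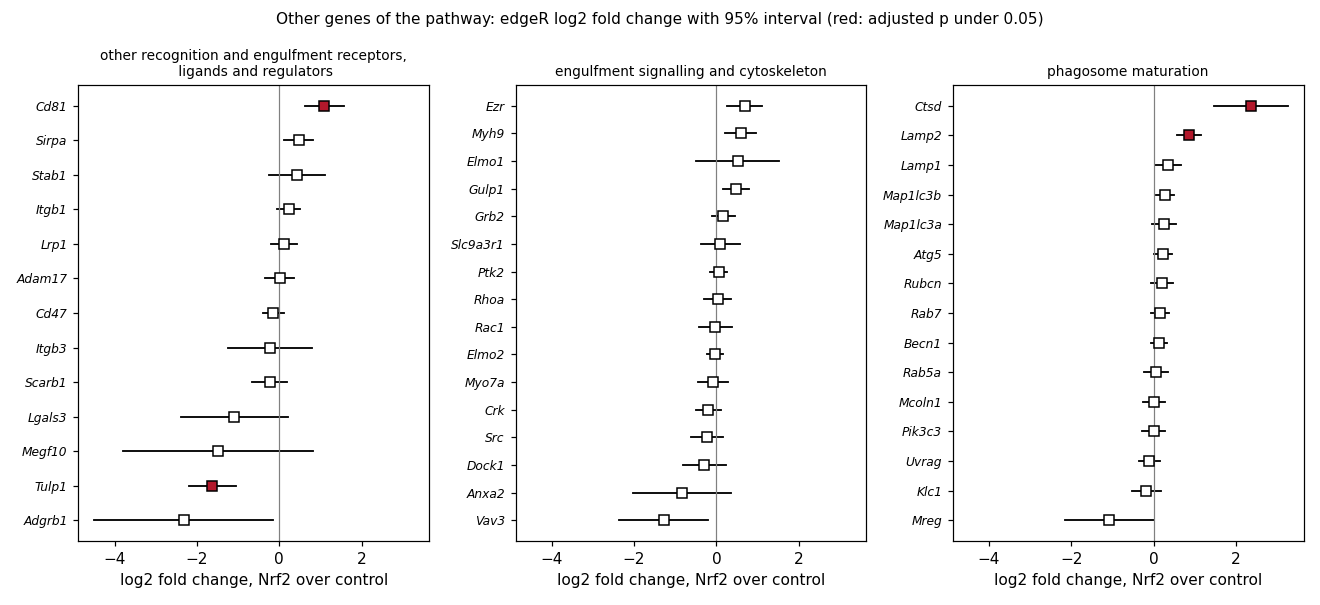
Log2 fold change (Nrf2 over control) with 95% interval from edgeR for the 44 tested genes of the 3 pathway lists, red where the adjusted p is under 0.05. The 4 red squares are Cd81 (1.10), Tulp1 (-1.63), Ctsd (2.36) and Lamp2 (0.87).

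The genes whose levels followed Mertk and Gas6 most closely among libraries were ranked over 12008 genes with at least 5 CPM on average, after the mean of each group was removed. The correlations describe the 14 libraries, which share depth, amplification and mice in pairs. Mertk varied most like Slc16a1, a lactate transporter (Pearson r = 0.95), Tbc1d1, a Rab GTPase regulator of glucose transport (r = 0.94), and Fgfr2, a growth factor receptor (r = 0.93), none of which differed between groups by the test above. Gas6 varied most like Ergic3, a protein of the early secretory pathway (r = 0.96), Gga2, a sorting adaptor of the trans-Golgi (r = 0.95), and Sqstm1, the autophagy adaptor p62 (r = 0.95). Of these, Gga2 (log2 fold change 1.16, adjusted p = 0.0116) and Sqstm1 (0.92, adjusted p = 0.0303) also rose in Nrf2 eyes. Without control 3 and Nrf2 4 the correlations of Gas6 were 0.93 with Ergic3, 0.94 with Gga2 and 0.93 with Sqstm1.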

How the data were processed

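RNA-seq of RPE from both eyes of 7 rd1 mice was analysed, 14 libraries in 2 groups. Per the methods of the study, the authors aligned reads to mm10 with Ensembl release 91, and quantified transcripts with Salmon (version 0.9.1 in the submitters' processing notes). The authors deposited 1 table of estimated counts, given as whole numbers per gene and without normalization between libraries. That they are the Salmon estimates was inferred from the set of rows. Estimated counts divide reads between similar transcripts by a model. The labels describe sequencing runs without assigning libraries to them, so no comparison within runs was made.

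Of 34452 mouse gene rows, 34401 matched GENCODE M21 (GRCm38), which gave symbols, positions and exonic lengths. The row of the vector transcript was kept in library totals and not counted among genes. Genes were filtered with filterByExpr (minimum count 10), scaled by TMM and fitted in edgeR 4.0.16 (under R 4.3.3) with terms for mouse and treatment, and the treatment term was tested by quasi-likelihood. Benjamini-Hochberg adjustment covered the 16289 genes and the row of the vector transcript. SEs were derived from the F statistic, and 95% intervals used 6 residual and 2.68 prior degrees of freedom. CPM are counts per 1e+06 of the TMM-scaled library size. Levels per kb use the union of annotated exons, an approximation where isoforms differ. For single members, the mean paired difference in log2 CPM (prior count 2) was put to an exact permutation test, two-sided, that flips signs in all 128 patterns. Its smallest p is 0.0156 for 7 mice and 0.0625 for 5. The edgeR fit was also run on simulated counts with known changes. These counts held no libraries like control 3 and Nrf2 4, so that run cannot show how such libraries affect the calls. The main design followed the paired comparison of the study, with edgeR in place of its DESeq2. The study counts fewer pairs at this age than the labels, which number 7, and all 7 were used here.

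The eyes are paired because the labels number them by animal. Deviations of the eyes of a mouse from their group means, over 12009 genes, correlated at 0.03, 0.07, 0.09, -0.44, 0.41, -0.26 and 0.19 in mice 1 to 7.

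The members and lists were chosen with earlier results of these data known. The text names all members, every gene of the pathway lists past the threshold and, in a list with fewer than 3 of these, its 3 genes of highest mean level, and the 3 genes most alike in pattern to Mertk and to each member past the threshold. Alternatives were no block for mouse, RLE, upper-quartile and total-count scaling, DESeq2 1.42.0, voom with quality weights in limma 3.58.1, a filter of at least 10 counts on average or none, an adjusted p threshold of 0.01, a prior count of 0.5, each mouse left out, mice 3 and 4 left out, and control 3 and Nrf2 4 left out with no block. Total-count scaling was chosen after seeing the data. Promoter windows are from RefSeq, and 10 of 10 members matched.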

Additional observations from a re-analysis of the deposited data

Results flagged for a closer look

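Among 50 groups of 7 values examined (members, their paired differences, marker sums and the vector transcript), 9 had 1 sample far from the others. About 2.5 would be expected by chance if values were normally distributed and groups independent. The groups share libraries and CPM can be skewed, so this figure is only a rough guide. Library Nrf2 2 accounted for 5 of these. It was the lowest Nrf2 eye in Tyro3 (25.9 CPM, next 57.6) and the highest in Cd36 (6.501 CPM, next 1.52), Tub (8.82 CPM, next 3.02), summed photoreceptor markers (163 CPM, next 57.8) and summed adipocyte markers (5.09 CPM, next 0.564). The paired log2 difference of Itgb5 in mouse 2, -0.83, was the lowest by a wide gap (next 0.08).

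Control 5 was the lowest control in Itgav, at 173 CPM (next 317). The vector transcript was highest among controls in control 3, at 1161 CPM (next 168). Summed skeletal muscle markers were highest among Nrf2 eyes in Nrf2 4, at 235 CPM (next 103).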

How the results depend on the processing

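The direction of Gas6, Pros1, Itgav, Itgb5, Mfge8, Cd36 and Tub was kept in every alternative fit run. Mertk, Axl and Tyro3, all close to 0, reversed in some. With 1 mouse left out, log2 fold changes ranged from -0.13 to 0.16 for Mertk (negative without mouse 1, 5 or 6), from -0.48 to 0.0521 for Axl (positive without mouse 3 or 5) and from -0.37 to 0.0389 for Tyro3 (positive without mouse 2). Mertk was at -0.11 with total-count scaling and Tyro3 at 0.12 with voom. The cause was not tested.

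Without the mouse block that pairs the eyes (no replicate block), 1100 genes differed in place of 559, the 1 member called was again Gas6 (adjusted p = 0.00354), and no other call among the members changed. DESeq2 gave 1943 genes, 2 members (Gas6 and Tub) and 12 pathway genes, and voom 2592, 2 and 8. With no filter 347 genes differed. At an adjusted p under 0.01, 56 genes, 0 members and 0 pathway genes passed (edgeR, with 2 members and 13 pathway genes at an unadjusted p under 0.05, where 18.1% of all genes lie). With no block and without control 3 and Nrf2 4, 1476 genes and 7 pathway genes differed. Leaving out 1 mouse gave 111 to 1998 genes, 0 to 1 members and 0 to 11 pathway genes. The 1998 arose without mouse 4 (978 higher and 1020 lower) and the 111 without mouse 7. Total-count scaling shifted the median log2 fold change of all genes to -0.17 and gave 314 genes higher and 198 lower, beside 479 and 80.

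Reads were amplified and carry no molecular identifiers, so they are not independent. Among the members, only Cd36 (as few as 4 counts) and Tub (18) were low enough for counting error to matter. The tested pathway genes Megf10 (as few as 0 counts), Adgrb1 (3) and Itgb3 (13) were also low. P-values rest on 7 mice of 1 age.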
